A study of Mus musculus with 16 samples.

Results

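The Fanconi anaemia, homologous recombination and checkpoint genes of haematopoietic stem cells (HSCs) were followed in mice given palbociclib, rapamycin or both for months. The group holds 35 genes listed by symbol for their roles in these pathways. All 35 were found among the 50686 genes of the deposited tables, and all 35 were among the 15308 genes with enough counts to test. They comprise 8 subunits of the Fanconi core complex, the 2 proteins of the ID complex, 5 BRCA proteins and partners, 7 recombination mediators and RAD54 proteins, 5 genes of end resection and junction processing, and 8 checkpoint genes.

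The palbociclib group received 30.4 mg/kg of this inhibitor of the cell cycle kinases CDK4 and CDK6, the rapamycin group 6.4 mg/kg of this mTOR inhibitor, the combination group both, and the vehicle group 20% DMSO and 40% PEG 400 in PBS. All animals were C57BL/6J mice injected intraperitoneally every 48 h for 85 days, and the drugs were given in that same vehicle. Every group had 4 libraries, 16 altogether, each made from 10000 G0/G1 cells that were lineage-depleted and then sorted by CD150, CD48, Sca-1 and CD117. The labels give neither age nor sex, nor whether libraries of a group are from different mice. The p-values below therefore rest on library-to-library spread, part of which may be technical. Total counts were 10133860 to 15328830 per library. All 8 HSC markers examined had counts in all 16 libraries, among them Kit with a median of 318 CPM (read counts scaled to library size) and Slamf1, which encodes CD150, with a median of 30.1 CPM. Markers of other blood cells were also present. All 15 neutrophil genes examined had counts in all 16 libraries, with a median of 10244 CPM for Ngp and 7811 CPM for S100a8. Of the lymphoid genes, Cd79a, Cd79b and Nkg7 had counts in all 16 libraries (Cd79a at 3.95 to 2172 CPM), while Pax5 was at 0 in 10 libraries and Cd8a and Ncr1 were at 0 in 9 each. Genes of G2 and mitosis (G2/M) had counts in all 16 libraries as well, though the cells were sorted as G0/G1. Their medians ran from 5.94 CPM for Ttk to 176 CPM for Ccnb1.

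The Fanconi pathway repairs crosslinks between the DNA strands that block replication forks. The core complex, whose subunit FANCL is a ubiquitin ligase, attaches ubiquitin to FANCD2 and FANCI, and this modified pair recruits nucleases to the crosslink. The resulting break is resected and then mended by homologous recombination, which needs BRCA1, PALB2, BRCA2 and a set of mediator proteins. The kinases ATM and ATR signal the damage through CHEK2 and CHEK1. Inherited loss of Fanconi genes causes bone marrow failure, and mice that lack them have HSC defects.

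Many of these genes belong to the set that E2F factors, which are held in check until CDK4 and CDK6 act, switch on before replication. RefSeq gave promoter windows on GRCm38.p6 for 27 of the 35 genes, and the 250 bases before each start were searched on both strands. For Chek1, Fancc, Fanci, Fancl and Rad51c these bases lay wholly inside the annotated gene. No window was given for Fancd2, Exo1, Nbn, Rad50, Rad51d, Xrcc2, Rad54b and Rbbp8. Bases before other starts of a gene were not searched. An E2F octamer (TTTCCCGC, TTTGGCGC, TTTCGCGC or TTTGCCGC) was found in 5 of these 27 genes (18.5%), Bard1, Brca2, Chek2, Fancg and Topbp1, against 1.91% of the windows of 27025 genes. The box CCAAT was found in 16 of 27 (59.3%), against 34.5% of all windows, and the CHR element of late cell cycle genes (TTTGAA or TTCGAA) in Atr and Bard1 (7.41%), against 17.4%. A match describes the letters of these windows and is not a mapped site.

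The windows of Topbp1 and Brca2 are shown because both genes stand among the smallest p-values below, that of Bard1 because it is the member of lowest level and carries both cell cycle motifs, and that of Fancf because it differed most the other way between palbociclib and the combination. Each is written 5′ to 3′ on the gene's strand and keeps only bases outside the annotated gene, with motif matches in capitals. The octamer ends lie 129 and 122 bases upstream of the RefSeq start in Topbp1 (chr9:103305077-103305214, plus strand), 168 and 161 in Brca2 (chr5:150522371-150522620, plus strand) and 209 and 202 in Bard1 (chr1:71103147-71103222, minus strand), where a CHR match precedes it. Fancf (chr7:51862268-51862517, minus strand) has no octamer and 3 CCAAT boxes, which begin 118, 72 and 31 bases upstream.
Topbp1: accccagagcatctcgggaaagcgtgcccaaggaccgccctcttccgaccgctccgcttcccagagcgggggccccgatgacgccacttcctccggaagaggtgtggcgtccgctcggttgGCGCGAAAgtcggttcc
Brca2: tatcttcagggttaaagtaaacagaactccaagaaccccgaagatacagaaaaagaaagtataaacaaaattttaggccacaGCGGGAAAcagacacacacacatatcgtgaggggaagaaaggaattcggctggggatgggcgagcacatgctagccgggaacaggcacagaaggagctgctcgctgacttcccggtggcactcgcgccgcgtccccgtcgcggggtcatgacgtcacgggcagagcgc
Bard1: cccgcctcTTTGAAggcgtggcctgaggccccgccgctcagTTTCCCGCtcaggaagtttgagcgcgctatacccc
Fancf: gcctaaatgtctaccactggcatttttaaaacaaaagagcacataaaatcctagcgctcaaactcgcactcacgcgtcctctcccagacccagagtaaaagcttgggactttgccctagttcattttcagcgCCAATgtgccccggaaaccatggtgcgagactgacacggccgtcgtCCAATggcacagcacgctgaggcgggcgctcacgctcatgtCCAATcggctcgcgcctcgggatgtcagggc

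Levels were compared between genes in TPM, a unit that allows for transcript length. All 35 genes were detected in every library except Rad51b, a recombination mediator, which had a count of 0 in vehicle 3. Of the 560 values of these genes, 6 lay under 10 counts, in Fancb, Bard1, Rad51b and Rad51c. The median of the 35 mean levels was 11.1 TPM in palbociclib, 9.94 TPM in rapamycin, 9.27 TPM in combination and 7.74 TPM in vehicle libraries. Topbp1, which encodes the activator of ATR, had the highest mean level and Bard1, the partner of BRCA1 in a ubiquitin ligase, the lowest in all 4 groups.

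Topbp1 was at 39.8, 43.7, 30.5 and 64.6 TPM in palbociclib libraries, at 54.2, 52.4, 33.9 and 44.2 TPM in rapamycin, at 46.3, 30.1, 36.4 and 34.8 TPM in combination, and at 59.2, 21.6, 33.9 and 27.0 TPM in vehicle libraries. The groups overlapped on this scale. Bard1 was at 0.69, 1.31, 0.51 and 1.08 TPM in palbociclib, at 0.71, 0.42, 0.09 and 1.31 TPM in rapamycin, at 0.95, 0.34, 0.48 and 0.74 TPM in combination, and at 1.41, 0.43, 0.64 and 0.76 TPM in vehicle libraries. Its groups overlapped as well, and its lowest value was in rapamycin 3. In the order of vehicle levels, Topbp1 (35.4 ± 16.6 TPM, SD, n = 4 here and below) and Fance (31.2 ± 11.6 TPM) at the top lay within each other's spread, as did Fancb (0.930 ± 0.845 TPM) and Bard1 (0.810 ± 0.423 TPM) at the bottom.

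Subunits of one complex differed widely in level. In the core complex, Fance, whose product bridges the ligase to FANCD2, averaged 26.8 ± 10.2 TPM in palbociclib and 31.2 ± 11.6 TPM in vehicle libraries. Fancm, the translocase that anchors the complex on DNA, averaged 0.973 ± 0.323 TPM in palbociclib and 1.20 ± 0.53 TPM in vehicle, and Fancb, a subunit of the catalytic part, averaged 1.40 ± 1.16 TPM in palbociclib and 0.930 ± 0.845 TPM in vehicle. The other 5 core subunits lay between 10.4 TPM (Fancl) and 20.8 TPM (Fancg) in vehicle. Among the recombination mediators and RAD54 proteins, vehicle means ran from 2.53 TPM for Rad51c to 22.6 TPM for Rad54l, the motor that drives strand exchange. Exo1, a nuclease that lengthens resected ends, averaged 35.2 ± 5.14 TPM in palbociclib and 21.9 ± 6.79 TPM in vehicle libraries, while the other 4 genes of its group had vehicle means of 2.99 TPM (Blm) to 9 TPM (Rad50). Checkpoint genes ran from 4.94 TPM for Atm to 35.4 TPM for Topbp1 in vehicle.

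The remaining members lay between these extremes, and their mean levels of 4 libraries follow by role. The SD was between 4.74% (Rad51d in palbociclib) and 95.6% (Fanci in vehicle) of these means. Fanca, a structural core subunit, averaged 13.9 TPM in palbociclib and 12.1 TPM in vehicle libraries. Fancc and Fancf, also core subunits, averaged 13.01 TPM in palbociclib and 12.5 TPM in vehicle (Fancc), and 12.1 TPM in palbociclib and 18.3 TPM in vehicle (Fancf). The ID complex was less abundant, with Fancd2 at 7.88 TPM in palbociclib and 2.59 TPM in vehicle and Fanci at 6.21 TPM in palbociclib and 3.48 TPM in vehicle. Brca1, the partner of BARD1, averaged 4.91 TPM in palbociclib and 3.6 TPM in vehicle libraries. Palb2, which joins BRCA1 to BRCA2, had 11.1 TPM in palbociclib and 10.5 TPM in vehicle, and Brca2 itself 8.98 TPM in palbociclib and 6.17 TPM in vehicle. The BRCA1-bound helicase gene Brip1 was at 6.70 TPM in palbociclib and 5.14 TPM in vehicle.

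Of the recombination mediators, Rad51d averaged 14.2 TPM in palbociclib and 15.5 TPM in vehicle, Xrcc3 11.6 TPM in palbociclib and 11.2 TPM in vehicle, and Xrcc2 9.13 TPM in palbociclib and 7.73 TPM in vehicle. Rad51b averaged 13.1 TPM in palbociclib and 7.74 TPM in vehicle, where the vehicle mean includes its count of 0, and Rad54b, a relative of Rad54l, 8.43 TPM in palbociclib and 6.12 TPM in vehicle. Among resection genes, Rbbp8, which starts resection, averaged 4.10 TPM in palbociclib and 4.08 TPM in vehicle, and Nbn 8.88 TPM in palbociclib and 5.52 TPM in vehicle. In the checkpoint group the kinase gene Atr averaged 6.68 TPM in palbociclib and 6.78 TPM in vehicle, and its partner Atrip 15.2 TPM in palbociclib and 16.8 TPM in vehicle. Chek2, the effector kinase of ATM, averaged 30.95 TPM in palbociclib and 21.4 TPM in vehicle, and Chek1 12.6 TPM in palbociclib and 5.98 TPM in vehicle. Clspn, the adaptor through which ATR activates CHEK1, averaged 23.4 TPM in palbociclib and 16.9 TPM in vehicle, and Trp53bp1, which limits resection, 24.1 TPM in palbociclib and 20.9 TPM in vehicle.

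**Figure D1:**
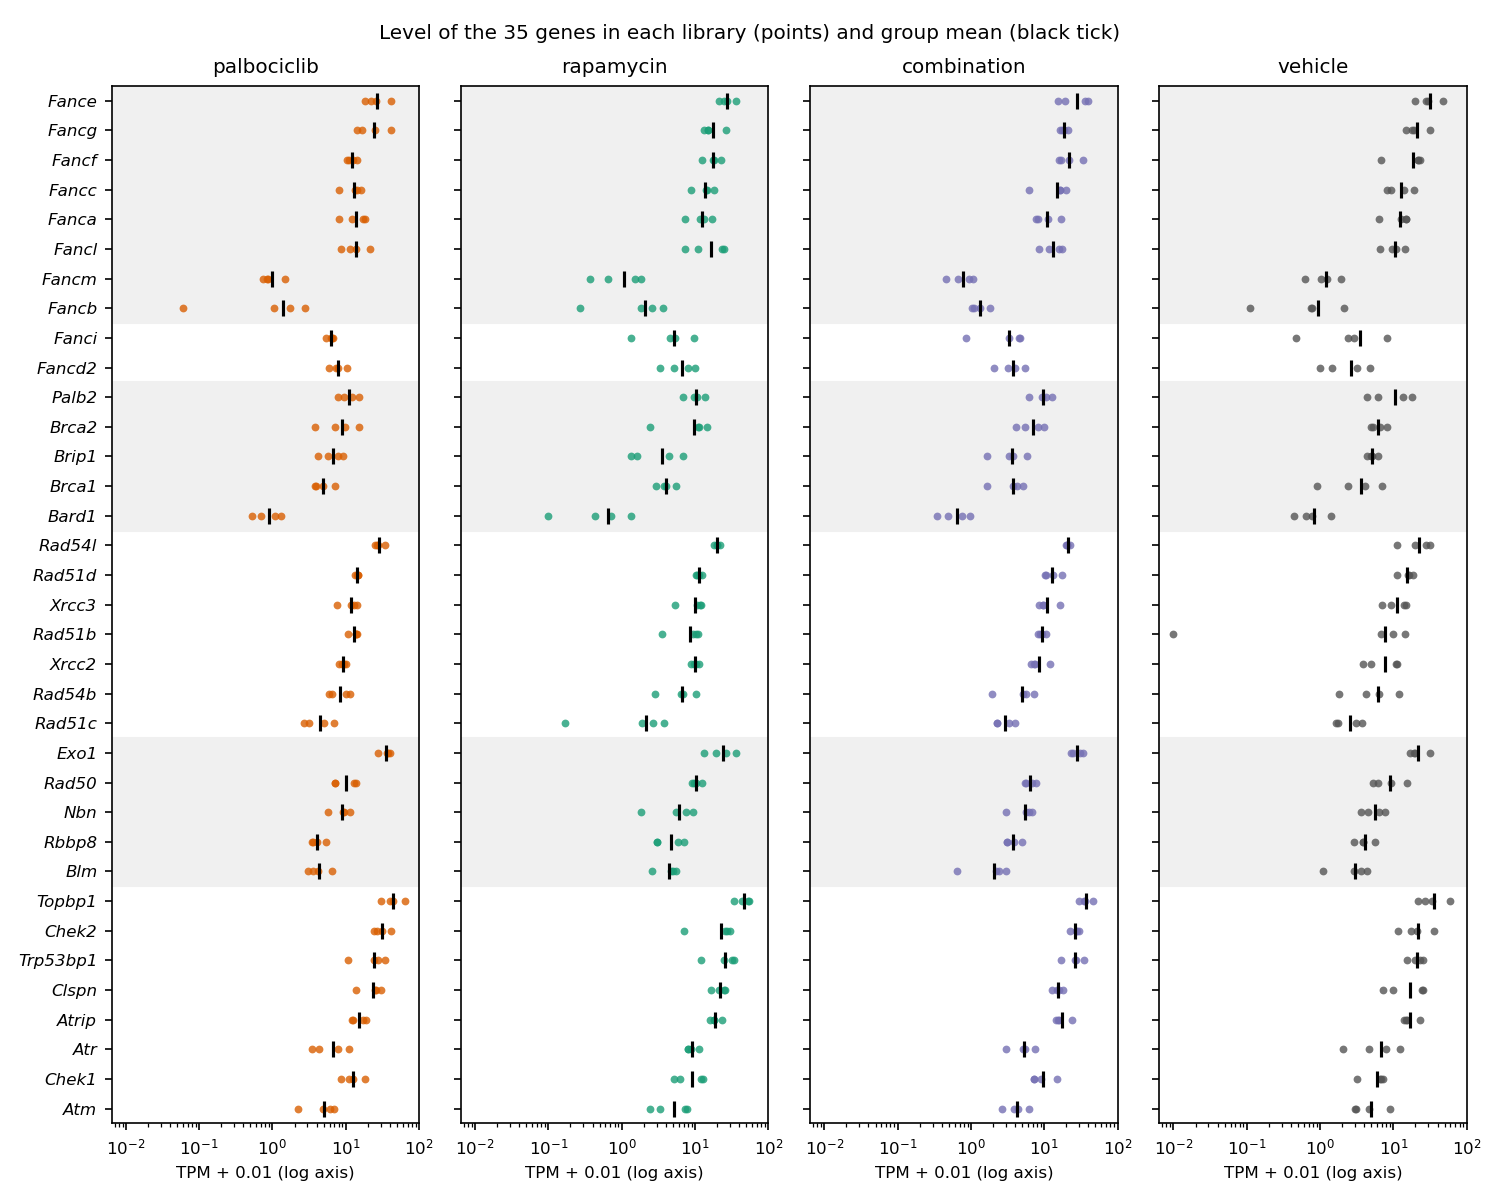
Level of each of the 35 genes in every library, in TPM + 0.01 on a log axis, with 1 panel per group and bands by role from the core complex at the top to checkpoint genes at the bottom; coloured points are libraries and black ticks the mean of 4. Topbp1 is highest and Bard1 lowest in all 4 groups, and the single point at the left edge is Rad51b in vehicle 3.

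Palbociclib alone was set against vehicle first, to ask how the repair genes responded to inhibition of CDK4 and CDK6. Levels were higher with the drug in 28 of 35 genes and lower in 7, and none passed the test over all genes. The smallest p-values were in Fancd2, the protein that carries the ubiquitin signal, in Chek1, the effector kinase of ATR, in Topbp1 and in Exo1. The ID complex and the BRCA proteins were higher in 7 of 7 genes, and the core complex was split 4 to 4. Within a gene, libraries were compared in TMM-scaled CPM.

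By edgeR's quasi-likelihood test with Benjamini-Hochberg adjustment, 0 of 35 genes were called at an adjusted p of 0.05, beside 0% of the 15308 genes tested. At an unadjusted p of 0.05, 4 of 35 were higher and 0 lower, where 4.36% of all genes were higher and 5.15% lower. DESeq2 called 1 of the 35, Fancd2 (adjusted p = 0.00692), among 137 genes it called in all, and limma on log2(TPM + 1) called 0. The 28 higher genes stood beside 47.8% of all genes with a positive fold change, and the median log2 fold change was 0.29 for the 35 and -0.03 for all genes. Without vehicle 2 the median was 0.15, and without vehicle 3 it was 0.44.

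Fancd2 (ENSMUSG00000034023, GRCm38 chromosome 6, 113531682 to 113597017, plus strand) was at 19.0, 29.7, 32.7 and 25.5 CPM in palbociclib libraries, against 5.51, 9.09, 4.34 and 8.04 CPM in vehicle libraries. Every palbociclib library lay above every vehicle library. The log2 fold change was 1.99 ± 0.47 (SE), or 3.96-fold, with an edgeR adjusted p of 0.212. Fanci, its partner, was at 22.0, 18.6, 19.2 and 18.2 CPM in palbociclib libraries, against 1.12, 11.7, 27.2 and 6.72 CPM in vehicle. The palbociclib libraries were close together and the vehicle libraries spread on both sides of them, so that the fold change of 0.73 ± 0.74 on the log2 scale was smaller than its error.

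Topbp1 was at 62.0, 66.4, 74.9 and 91.3 CPM in palbociclib, against 49.9, 31.1, 34.7 and 50.8 CPM in vehicle libraries. The groups did not overlap in CPM (log2 fold change 0.82 ± 0.25, edgeR adjusted p = 0.329). They overlapped in TPM, where the difference of mean log2(TPM + 1) was 0.38 (limma adjusted p = 0.757). Differences of single genes on the TPM scale below are of this kind. The added 1 makes them smaller than a log2 ratio where levels are low. Chek1 was at 10.6, 12.7, 16.7 and 25.6 CPM in palbociclib, against 4.74, 6.76, 11.5 and 4.30 CPM in vehicle libraries. Vehicle 3 exceeded the lowest palbociclib library (log2 fold change 1.26 ± 0.43, edgeR adjusted p = 0.387). In TPM its groups did not overlap, with 8.53 to 18.5 TPM in palbociclib and 3.22 to 7.29 TPM in vehicle. Exo1 was at 23.2, 27.8, 30.8 and 30.1 CPM in palbociclib, against 13.3, 17.1, 25.0 and 19.4 CPM in vehicle, where vehicle 3 again overlapped (0.58 ± 0.23, edgeR adjusted p = 0.440). Without vehicle 3, vehicle 4 and rapamycin 3, the libraries least like the rest, the Exo1 value was 0.89, and 27 of the 35 genes were higher.

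Libraries of the groups did not overlap, with palbociclib above, in 3 of 35 genes, beside 2.83% of all genes, and in no gene with palbociclib below, beside 2.21%. The third of these genes, named after its values were seen, was Nbn, a subunit of the MRN complex that senses breaks. It was at 17.9, 19.1, 12.7 and 15.7 CPM in palbociclib, against 9.47, 10.2, 11.9 and 8.37 CPM in vehicle (log2 fold change 0.71 ± 0.40, edgeR adjusted p = 0.618).

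By role, the median log2 fold change was 1.36 for the ID complex, 0.63 for the BRCA proteins and partners, 0.44 for resection and junction processing, 0.35 for the recombination mediators and RAD54 proteins, 0.27 for checkpoint genes and 0.08 for the core complex. Brca1, which promotes resection, had 0.80 ± 0.41 and Brca2, the central mediator, 0.70 ± 0.58. Rad51c, shared by both mediator complexes of this family, had 0.99 ± 0.61. At the other end, Fancf, an adaptor of the core complex, had -0.61 ± 0.31, with 15.3, 17.1, 16.4 and 16.6 CPM in palbociclib, against 26.7, 32.5, 29.2 and 11.1 CPM in vehicle libraries. Vehicle 4 was below all palbociclib libraries and the other 3 vehicle libraries were above them. The 5 genes with an E2F octamer had a median of 0.31 and the 22 whose searched window held none 0.25, with ranges that overlapped. Genes without a window, among them Fancd2, Exo1 and Nbn, are in neither set. For Chek1 and Rad51c, counted among those with none, the bases searched lay inside the annotated gene.

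Of 54 other genes of the pathway that were tested, 40 were higher and 14 lower with palbociclib, 0 were called by edgeR, and 8 were higher and 0 lower at an unadjusted p of 0.05, beside 4.36% and 5.15% of all genes. Rad51ap1, which stimulates strand exchange, averaged 43.9 ± 6.74 CPM in palbociclib and 20.2 ± 10.5 CPM in vehicle libraries (log2 fold change 1.12 ± 0.29, edgeR adjusted p = 0.272). Zgrf1, a helicase gene, averaged 15.8 ± 7.52 CPM in palbociclib and 7.36 ± 3.50 CPM in vehicle (1.10 ± 0.41, edgeR adjusted p = 0.421). End joining genes were higher in 6 of 10 and mismatch repair genes in 6 of 7.

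**Figure D2:**
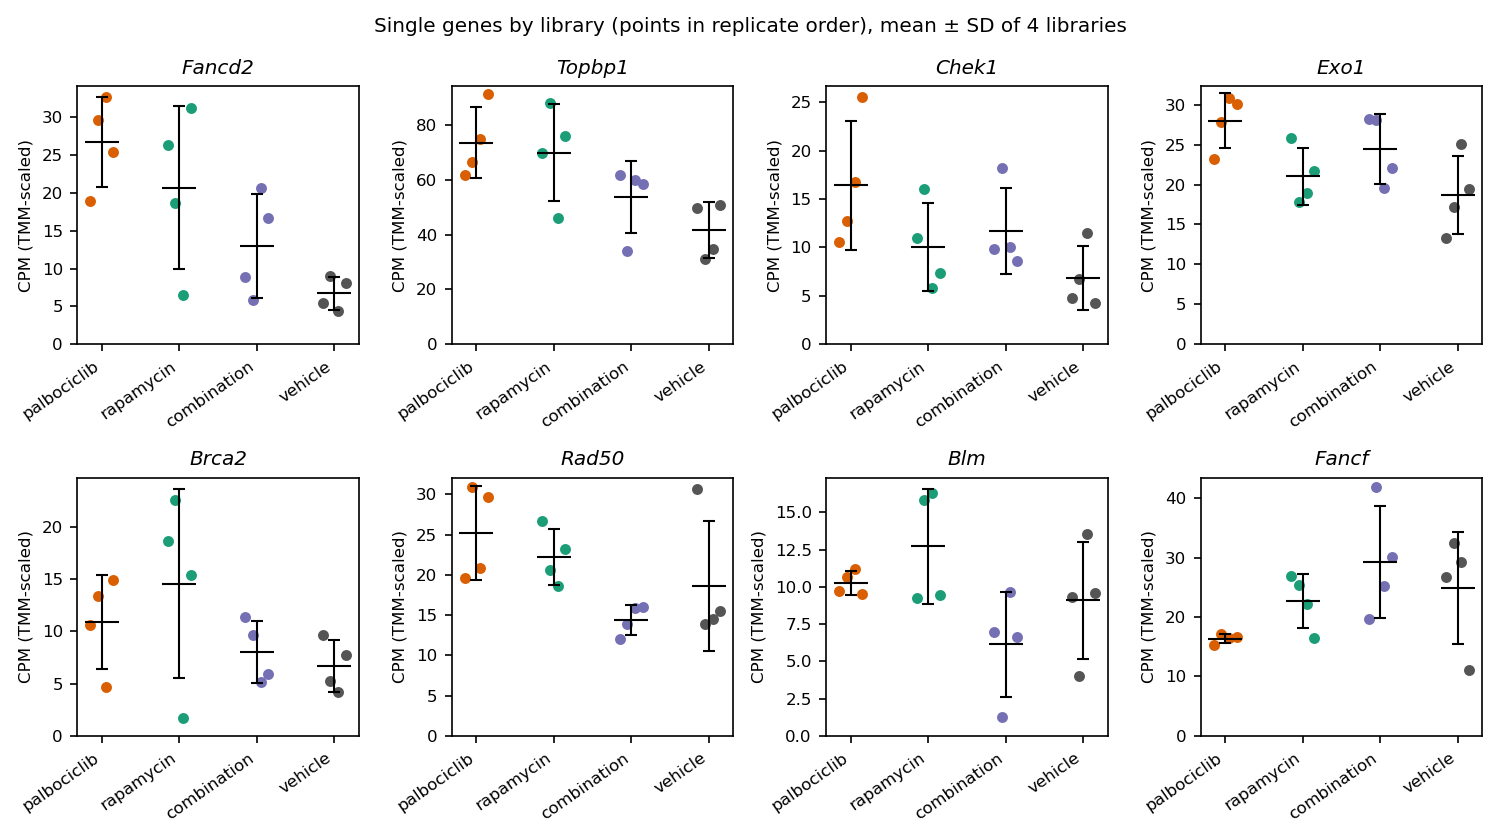
The genes Fancd2, Topbp1, Chek1, Exo1, Brca2, Rad50, Blm and Fancf in every library, in TMM-scaled CPM on linear axes from 0, for palbociclib, rapamycin, combination and vehicle; points are libraries in replicate order, and bars give the mean and SD of 4. Fancd2 and Topbp1 in palbociclib libraries lie above all vehicle libraries, and Rad50 in combination libraries lies below all palbociclib and rapamycin libraries.

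Cell cycle genes were also higher with palbociclib, though edgeR called 0 of them. The mean log2 CPM of 30 S-phase genes was 6.86 ± 0.11 in palbociclib and 6.30 ± 0.20 in vehicle libraries, with 29 of 30 higher, and that of 26 G2/M genes was 5.94 ± 0.25 in palbociclib and 5.12 ± 0.41 in vehicle, with 26 of 26 higher. Their part in the result was not tested. Neutrophil genes were higher in 12 of 15 (median log2 fold change 0.86), with a summed level of 11358 to 99417 CPM (median 69329) in palbociclib and 10767 to 66520 CPM (median 32085) in vehicle libraries. HSC markers were lower in 7 of 8 (median -0.40), B cell genes in 7 of 8 (median -2.43) and T and NK cell genes in 4 of 5 (median -1.21), with 0 of these marker genes called by edgeR. The summed B cell level was 3975 CPM in vehicle 4 and 81.5 to 163 CPM in the other vehicle libraries, so the vehicle mean rests largely on vehicle 4. It was 476 CPM in palbociclib 1 and 58.5 to 68.2 CPM in the other palbociclib libraries. The 15 neutrophil genes made up 1.22% to 9.20% of counts in palbociclib and 1.23% to 6.34% in vehicle libraries, and the 9 B cell genes listed 0.00596% to 0.0441% in palbociclib and 0.00777% to 0.356% in vehicle. With both shares as covariates the median was 0.35 and Fancd2 had 1.91 on the log2 scale (edgeR adjusted p = 0.333). In RNA of bulk samples, a smaller number of cells of a type and less RNA per cell cannot be told apart.

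**Figure D3:**
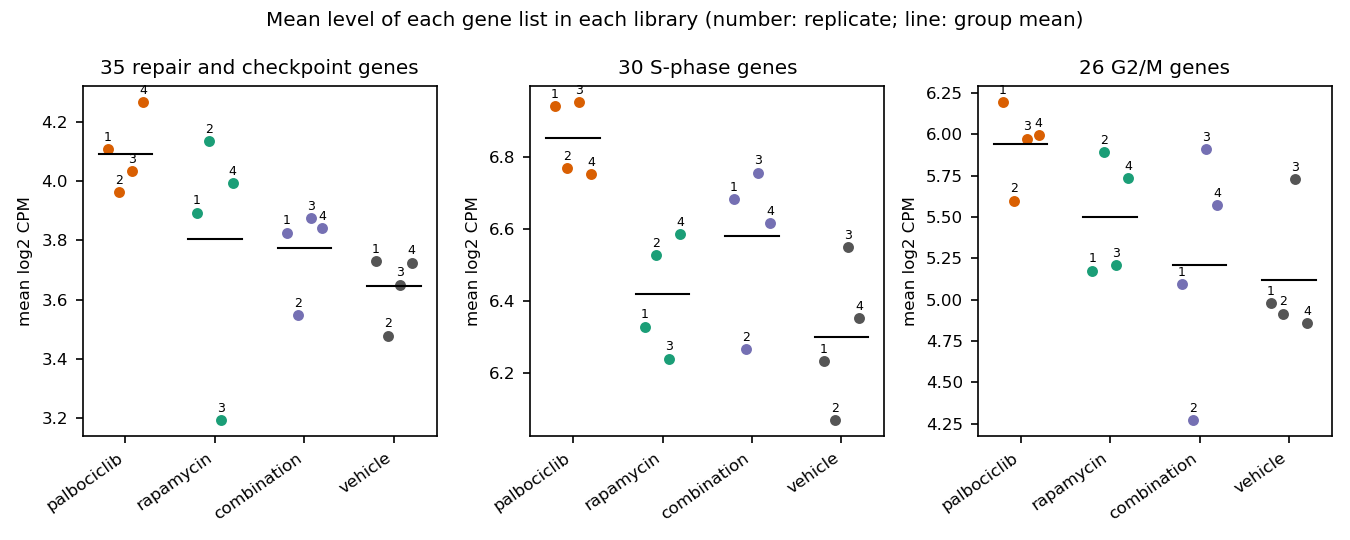
Mean log2 CPM of the 35 genes (left), of 30 S-phase genes (middle) and of 26 G2/M genes (right) in each library of the palbociclib, rapamycin, combination and vehicle groups; numbers are replicates and lines group means, and the axes do not start at 0. In the left panel palbociclib libraries run from 3.96 to 4.27, above the vehicle libraries at 3.48 to 3.73, and rapamycin 3 is lowest at 3.20. These groups overlap on scales not drawn. Summed TPM of the 35 genes is 399 to 521 in palbociclib and 309 to 495 in vehicle libraries. Their share of counts is 0.0683% to 0.0822% in palbociclib and 0.0506% to 0.0763% in vehicle libraries.

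Rapamycin alone was compared with vehicle next. Levels were higher in 22 of 35 genes and lower in 13, and 0 of 35 were called by edgeR, beside 0.00653% of all genes. Fancd2 and Topbp1 again had the smallest p-values, and 3 of 4 rapamycin libraries exceeded all vehicle libraries in both. Rapamycin 3 stood apart, with the lowest mean of the 35 genes of all 16 libraries, the fewest genes detected (16570) and a median correlation of 0.871 with the others, lower only in vehicle 3.

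Fancd2 was at 26.4, 18.7, 6.54 and 31.2 CPM in rapamycin libraries, where rapamycin 3 lay within the vehicle range of 4.34 to 9.09 CPM (log2 fold change 1.62 ± 0.46, edgeR adjusted p = 0.420). Topbp1 was at 69.9, 88.0, 46.0 and 76.2 CPM, against 31.1 to 50.8 CPM in vehicle, with rapamycin 3 again inside that range (0.75 ± 0.24, edgeR adjusted p = 0.501), and the difference was 0.45 on the TPM scale. Brca2 was at 18.6, 22.5, 1.68 and 15.4 CPM in rapamycin, against 9.64, 5.28, 4.15 and 7.71 CPM in vehicle libraries. Here 3 rapamycin libraries were above all vehicle libraries and rapamycin 3 was below them all (1.12 ± 0.58, edgeR adjusted p = 0.709). The difference of mean log2(TPM + 1) was 0.41. Rad51d, a recombination mediator, was at 21.9, 27.1, 17.5 and 18.1 CPM in rapamycin, against 27.6, 30.9, 19.2 and 35.2 CPM in vehicle, with overlapping groups (-0.42 ± 0.24, edgeR adjusted p = 0.765).

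At an unadjusted p of 0.05, 2 of 35 were higher and 0 lower, beside 3.31% and 4.34% of all genes, and DESeq2 and limma each called 0 of the 35. No gene separated the groups in either direction, beside 1.57% of all genes above and 1.5% below. The median log2 fold change was 0.10 for the 35 and -0.01 for all genes, and 22 of 35 stood beside 49% of all genes with a positive fold change. The median was 0.22 without rapamycin 3 and -0.02 without rapamycin 2, and 27 genes were higher without rapamycin 3, vehicle 3 and vehicle 4. By role it was 1.04 for the ID complex and 0.20 for resection and junction processing (5 of 5 higher), and -0.26 for the recombination mediators and RAD54 proteins (3 of 7 higher). Of the 54 other pathway genes 34 were higher and 0 called, with the smallest p in Rad51ap1 (35.9 ± 6.52 CPM in rapamycin and 20.2 ± 10.5 CPM in vehicle, log2 fold change 0.83 ± 0.29, edgeR adjusted p = 0.519) and in Rpa3, a subunit of the single-strand binding protein (0.49 ± 0.19, edgeR adjusted p = 0.566). The S-phase list averaged 6.42 ± 0.16 in rapamycin and 6.30 ± 0.20 in vehicle libraries in log2 CPM, with 15 of 30 higher, and 22 of 26 G2/M genes were higher. Erythroid genes were higher in 9 of 9 (median log2 fold change 0.40), HSC markers in 5 of 8 and neutrophil genes in 9 of 15. Stroma and endothelium genes were higher in 5 of 6 and lower in 1 (median 1.37, 2 without overlap). Their mean log2 CPM was 3.04 to 4.33 in rapamycin and 1.95 to 2.54 in vehicle libraries. B cell genes were lower in 7 of 8 (median -2.37) and T and NK cell genes in 5 of 5 (median -1.72). The summed B cell level was 56.3 to 163 CPM in rapamycin libraries, 3975 CPM in vehicle 4 and 81.5 to 163 CPM in the other vehicle libraries. The part of these lists in the result was not tested.

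Both drugs together, compared with vehicle, left the 35 genes nearly evenly split. Levels were higher in 18 and lower in 17, and 0 of 35 were called by edgeR, beside 0% of all genes. No gene had an unadjusted p under 0.05, where 4.99% of all genes were higher and 5.53% lower, and DESeq2 and limma each called 0 of the 35. No gene separated the groups, beside 3.38% of all genes above and 2.18% below. The median log2 fold change was 0.05 for the 35 and -0.02 for all genes, of which 48.4% were positive. Single libraries turned its sign: it was -0.07 without vehicle 2 and also below 0 without vehicle 4, combination 1 or combination 4, and with library totals in place of TMM.

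The 4 genes with the smallest p-values were Fancd2, Chek1, Exo1 and Topbp1. Fancd2 was at 8.86, 5.85, 20.7 and 16.6 CPM in combination libraries, of which the first pair lay within the vehicle range of 4.34 to 9.09 CPM and the others above it (log2 fold change 0.95 ± 0.46, edgeR adjusted p = 0.489, and 0.46 on the TPM scale). Chek1 was at 9.89, 18.2, 10.1 and 8.64 CPM in combination, against 4.74, 6.76, 11.5 and 4.30 CPM in vehicle, with vehicle 3 above 3 of the 4 (0.77 ± 0.42, edgeR adjusted p = 0.564). With the neutrophil and B cell shares as covariates its value was 0.35, and without combination 2 it was 0.48. Exo1 was at 28.2, 28.0, 19.5 and 22.1 CPM in combination, against 13.3 to 25.0 CPM in vehicle (0.39 ± 0.23, edgeR adjusted p = 0.606). Topbp1 was at 61.9, 34.0, 60.1 and 58.5 CPM in combination, against 31.1 to 50.8 CPM in vehicle, with combination 2 inside that range (0.37 ± 0.24, edgeR adjusted p = 0.655, and 0.14 on the TPM scale). Role medians lay between -0.15 for resection and junction processing and 0.39 for the ID complex. Of the 54 other pathway genes 30 were higher and 0 called, with the smallest p in Swsap1, a recombination gene (19.2 ± 4.46 CPM in combination and 11 ± 5.41 CPM in vehicle, 0.81 ± 0.34, edgeR adjusted p = 0.412), and Rnf168, a ubiquitin ligase at breaks (0.46 ± 0.20, edgeR adjusted p = 0.435). S-phase genes were higher in 23 of 30 and G2/M genes in 16 of 26. B cell genes were lower in 8 of 8 (median -4.82), T and NK cell genes in 5 of 5 (median -3.79) and erythroid genes in 8 of 9 (median -1.72). Neutrophil genes were higher in 8 of 15. The summed B cell level was 38.5 to 79.1 CPM in combination libraries, 3975 CPM in vehicle 4 and 81.5 to 163 CPM in the other vehicle libraries. The part of these lists in the result was not tested.

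**Figure D4:**
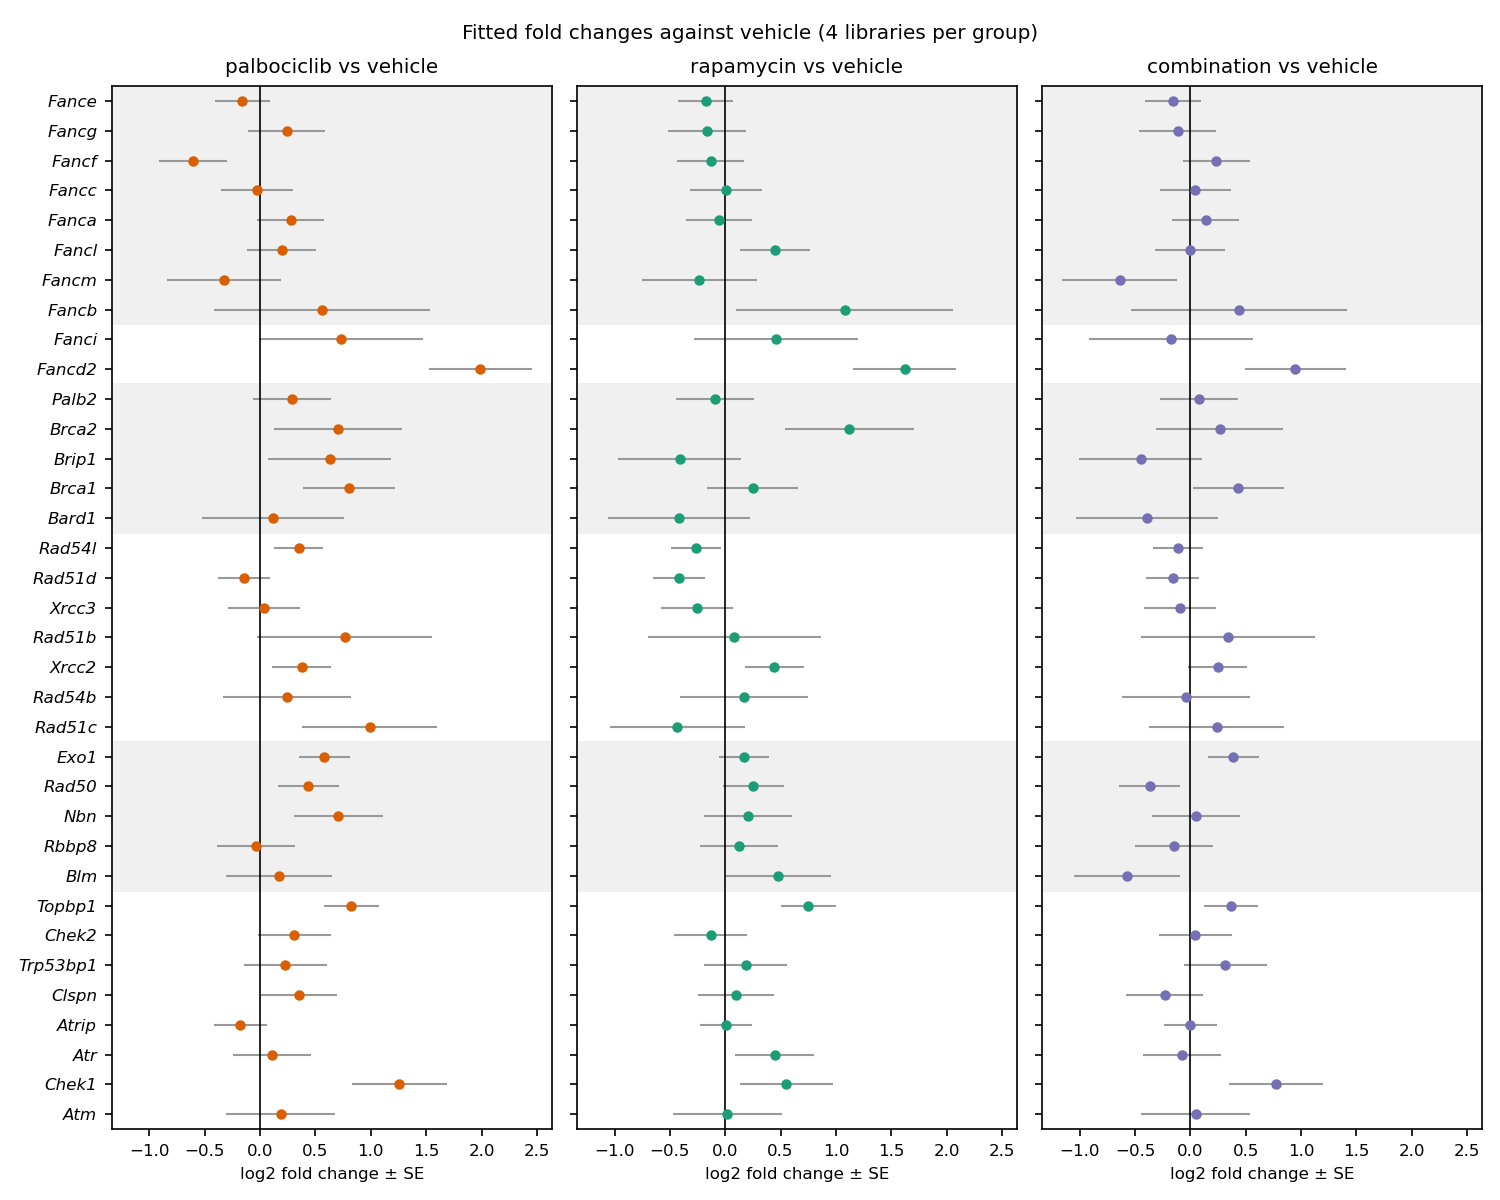
Fitted log2 fold change of each of the 35 genes for palbociclib, rapamycin and combination, each over vehicle, with horizontal bars of 1 SE and bands by role from the core complex at the top to checkpoint genes at the bottom. The 3 comparisons share the 4 vehicle libraries. Fancd2 is farthest to the right in the palbociclib (1.99) and rapamycin (1.62) panels and also in the combination panel (0.95).

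The 3 comparisons share their vehicle libraries, so likeness between them was not measured. Side by side, Fancd2 had log2 fold changes of 1.99 with palbociclib, 1.62 with rapamycin and 0.95 with both. Topbp1 had 0.82 with palbociclib, 0.75 with rapamycin and 0.37 with both, and Chek1 had 1.26 with palbociclib, 0.55 with rapamycin and 0.77 with both.

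Adding rapamycin to palbociclib was examined in the combination and palbociclib libraries. Levels were lower in the combination in 30 of 35 genes and higher in 5, and 0 of 35 were called by edgeR, beside 0% of all genes. The same palbociclib libraries gave the 28 of 35 genes higher than in vehicle, so these counts are not independent. Unadjusted p-values under 0.05 were found for 1 higher and 2 lower genes, beside 1.67% and 1.18% of all genes, and DESeq2 and limma each called 0. The median log2 fold change was -0.28 for the 35 and -0.01 for all genes, of which 49% were positive. The count of higher genes was 2 without combination 2 and 8 without palbociclib 1 or palbociclib 4. All 7 recombination mediators and RAD54 proteins, all 5 BRCA proteins and partners and all 5 genes of resection and junction processing had negative fold changes, and 3 of 8 core complex genes had positive ones.

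Rad50, the ATPase of the MRN complex, was at 12.0, 14.0, 15.8 and 16 CPM in combination, against 19.6, 30.9, 20.9 and 29.7 CPM in palbociclib libraries, with no overlap (log2 fold change -0.80 ± 0.28, edgeR adjusted p = 1). Fancf went the other way, with 19.6, 41.9, 25.3 and 30.1 CPM in combination, against 15.3, 17.1, 16.4 and 16.6 CPM in palbociclib, also without overlap (0.84 ± 0.31, edgeR adjusted p = 1). Reads of Gas2, which overlaps Fancf on the opposite strand at a mean of 6.1 CPM, may not be separated from it, since the strand of the counting is not given in the sources used here. Groups did not overlap in 1 gene with the combination above, beside 2.23% of all genes, and in 6 with it below, beside 1.61%. Those below were Rad50, Nbn, Fanci, Brip1, Rad51b and Topbp1, named after their values were seen. Most of these gaps were narrow. The highest combination and lowest palbociclib values were 61.9 and 62.0 CPM for Topbp1, 8.43 and 8.47 CPM for Brip1, and 8.36 and 8.58 CPM for Rad51b. They were 12.4 and 12.7 CPM for Nbn and, farther apart, 15.3 and 18.2 CPM for Fanci. The count below was 4 in TPM and 5 with library totals in place of TMM. In the same libraries S-phase genes were lower in 30 of 30 and G2/M genes in 26 of 26, and of the other pathway genes 38 of 54 were lower. HSC markers were higher in 8 of 8 (median log2 fold change 0.17, 2 without overlap), with a summed level of 1161 to 1416 CPM in combination and 567 to 920 CPM in palbociclib libraries. B cell genes were lower in 8 of 8 (median -2.06, 2 without overlap), T and NK cell genes in 5 of 5 (median -2.48) and neutrophil genes in 11 of 15 (median -0.51). Palbociclib 1 had a summed B cell level of 476 CPM, against 58.5 to 68.2 CPM in the other palbociclib libraries. With the neutrophil and B cell shares as covariates the median of the 35 was -0.27 and 7 were higher. The part of the cell cycle genes and HSC markers in the result was not tested.

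Adding palbociclib to rapamycin gave 18 of 35 genes higher and 17 lower in combination than in rapamycin libraries. By edgeR 0 of 35 were called, beside 0.0327% of all genes, and DESeq2 and limma each called 0. At an unadjusted p of 0.05, 0 were higher and 2 lower, beside 5.44% and 4.35% of all genes. The median log2 fold change was 0.02 for the 35 and -0.02 for all genes, and it was -0.08 without rapamycin 3, -0.07 with library totals and -0.13 in TPM. The count of higher genes was 11 without rapamycin 3 and 13 with library totals in place of TMM. The 2 smallest p-values belonged to Rad50 and to Blm, the helicase that dissolves joined strands. Rad50 was at 12.0, 14.0, 15.8 and 16 CPM in combination, against 26.6, 20.6, 18.6 and 23.2 CPM in rapamycin libraries (log2 fold change -0.62 ± 0.28, edgeR adjusted p = 0.468). It was the 1 gene of 35 whose groups did not overlap with the combination below, beside 3.87% of all genes, and none lay above, beside 4.98%. Vehicle libraries had 30.7, 13.9, 14.5 and 15.5 CPM of Rad50, and 3 of them lay within the combination range. Blm was at 6.96, 1.29, 9.66 and 6.64 CPM in combination, against 9.26, 15.8, 16.3 and 9.48 CPM in rapamycin, with combination 3 above the lowest rapamycin libraries (-1.05 ± 0.48, edgeR adjusted p = 0.498). Erythroid genes were lower in 9 of 9 (median log2 fold change -2.42, 7 without overlap) and B cell genes in 8 of 8 (median -1.60). T and NK cell genes were lower in 4 of 5, HSC markers in 5 of 8 and neutrophil genes in 8 of 15. S-phase genes were higher in 23 of 30 and G2/M genes lower in 19 of 26. The part of these lists in the result was not tested.

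Averaged over both rapamycin levels, 8 libraries with palbociclib stood against 8 without it. Levels were higher in 24 of 35 genes, 0 of 35 were called by edgeR, beside 0.274% of all genes, and DESeq2 and limma each called 0. At an unadjusted p of 0.05, 2 were higher and 0 lower, beside 6.89% and 6.93%, and the median log2 fold change was 0.09. Those 2 were Chek1 (0.74 ± 0.30, edgeR adjusted p = 0.287) and Exo1 (0.40 ± 0.16, edgeR adjusted p = 0.289), whose values in the other groups are given above. In rapamycin libraries Chek1 was at 10.9, 16.1, 5.82 and 7.35 CPM and Exo1 at 25.8, 17.8, 18.9 and 21.6 CPM. With the neutrophil and B cell shares as covariates the Chek1 value was 0.48. Averaged over both palbociclib levels, rapamycin gave 13 of 35 genes higher and a median of -0.09, with 0 of 35 called by edgeR, beside 0% of all genes, and 0 by DESeq2 and limma. Only 1 gene, lower, had an unadjusted p under 0.05, beside 1.97% of all genes higher and 2.67% lower.

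That gene was Rad54l, at 46.8, 46.7, 40.1 and 46.5 CPM in rapamycin and 49.8, 46.4, 53.7 and 50.2 CPM in combination, against 89.5, 52.2, 68.7 and 65.1 CPM in palbociclib and 60.3, 29.9, 71.6 and 54.7 CPM in vehicle libraries (log2 fold change -0.36 ± 0.16, edgeR adjusted p = 1). The libraries with rapamycin were closely grouped and vehicle 2 was lower than all of them. Without rapamycin 3, vehicle 3 and vehicle 4 the values were -0.20 for Rad54l and -0.43 for Brip1, the next gene. Lrrc41, which overlaps Rad54l on the opposite strand, is expressed at a higher mean CPM than Rad54l itself, and its reads may not be separated. Brip1, the BRCA1-bound helicase, came second, at 6.04, 7.21, 1.20 and 7.19 CPM in rapamycin and 5.14, 1.43, 8.43 and 6.18 CPM in combination, against 11.8, 8.47, 11.7 and 12.6 CPM in palbociclib and 8.61, 3.20, 7.32 and 9.69 CPM in vehicle libraries (-0.74 ± 0.39, edgeR adjusted p = 1). The lowest values of Brip1 were in rapamycin 3 and combination 2.

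Whether the 2 drugs together differed from the sum of their single effects was tested as an interaction, the combination minus both single drugs plus vehicle on the log2 scale. It was negative in 29 of 35 genes and positive in 6, with a median of -0.36 beside 0.01 for all genes, of which 50.7% were positive. The median was -0.22 without vehicle 2, -0.52 without rapamycin 3 and -0.71 without vehicle 3, vehicle 4 and rapamycin 3. By edgeR 0 of 35 were called, beside 0% of all genes, and limma called 0. DESeq2 called 1 of the 35, Fancd2 (-2.65, adjusted p = 0.0266), among 45 genes it called in all. At an unadjusted p of 0.05, 1 was positive and 3 were negative, beside 3.29% and 2.38%. Fancd2 had an interaction of -2.66 ± 0.65 (edgeR adjusted p = 0.471), and Topbp1 of -1.21 ± 0.35 (edgeR adjusted p = 0.572), or -0.69 in TPM. For Fancd2 the 4 group means were 26.7 ± 5.97 CPM in palbociclib, 20.7 ± 10.8 CPM in rapamycin, 13.0 ± 6.83 CPM in combination and 6.75 ± 2.20 CPM in vehicle libraries. For Topbp1 they were 73.7 ± 12.9 CPM in palbociclib, 70.0 ± 17.7 CPM in rapamycin, 53.6 ± 13.2 CPM in combination and 41.6 ± 10.2 CPM in vehicle. Of the 54 other pathway genes 40 were negative and 0 called, with the smallest p in Rad51ap1 (-1.50 ± 0.41, edgeR adjusted p = 0.571). All 26 G2/M genes and 24 of 30 S-phase genes also had negative interactions, and their part in the result was not tested. Each vehicle library enters this contrast, as do the drug libraries of the comparisons above, so its signs are not independent of theirs. Without vehicle 2 or rapamycin 2 the count of positive genes was 10.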

How the data were processed

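RNA of sorted HSCs was measured in 16 libraries made with a low-input kit, per the labels' protocols. The submitters' processing notes name STAR 2.5.3a, RSEM 1.3.0, SAMtools 1.3 and mm10. Strand, filters and annotation release were not given in the sources used here. Whole-number expected counts per gene were deposited by the authors, along with log2(TPM + 1) values, from which TPM was recovered. Expected counts share reads among similar or overlapping genes, so Fanca, Fancc, Fancf, Fanci, Fancl, Rad54l, Xrcc3, Trp53bp1 and Atrip, which overlap expressed genes, are less certain. Symbols and coordinates came from GENCODE M21 (GRCm38), and promoters from RefSeq.

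Counts were fitted with edgeR 4.0.16 in R 4.3.3 (filterByExpr, minimum count 10 and total 15, TMM, a mean per group over all 16 libraries, 12 residual degrees of freedom), adjusted over 15308 genes at 0.05. Contrasts were the 8 described, with groups from the sample titles. DESeq2 1.42.0, limma 3.58.1 on TPM with pseudocounts of 1 and 0.1, other scalings, no filter, a replicate block, covariates and left-out libraries were alternatives. The fits were also run on simulated data that held large changes only. This does not show whether changes as small as most of those here would be called. Common dispersion gave a coefficient of variation of 55.8%, far above counting error. Named genes were the 4 of smallest p in each comparison with vehicle, 2 in each other contrast, and any called; values of the highest and lowest member were added. The members, lists and contrasts were chosen with earlier results of these data known. No 2 libraries of a group matched within sampling noise (lowest chi-square per degree of freedom 26.4).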

Additional observations from a re-analysis of the deposited data

Results flagged for a closer look

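In 9 of 140 sets of 4 libraries (1 gene in 1 group), 1 library lay so far from the other 3 that its gap to the nearest, as a share of the range, exceeded Dixon's 95% limit for 4 values. Chance flags about 1 in 20 such sets.

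Of the 9, 3 were in combination 2 and 2 in rapamycin 3. In combination 2, Chek1 was at 18.2 CPM (others 8.64 to 10.1), Topbp1 at 34.0 CPM (58.5 to 61.9) and Nbn at 5.58 CPM (11.6 to 12.4). In rapamycin 3, Rad54l was at 40.1 CPM (others 46.5 to 46.8) and Chek2, the effector kinase of ATM, at 12.2 CPM (28 to 31.2). Rad50 was at 30.7 CPM in vehicle 1 (others 13.9 to 15.5). Trp53bp1, which limits resection, was at 28 CPM in palbociclib 1 (55.1 to 60), and Rbbp8, which starts it, at 15.1 CPM in palbociclib 4 (10.7 to 11.2). Xrcc2, a recombination mediator, was at 29.3 CPM in combination 1 (18.2 to 19.5).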

How the results depend on the processing

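In the 8 contrasts, the number of the 35 genes called stayed at 0 in edgeR and limma under every alternative run, leaving out any single library included. DESeq2 called 1 in palbociclib against vehicle and 1 in the interaction, Fancd2 in both (1.98, adjusted p = 0.00692, and -2.65, adjusted p = 0.0266, with 137 and 45 genes called in all). Without the 3 libraries of lowest correlation, vehicle 3, rapamycin 3 and vehicle 4, the median interaction was -0.71. The cause was not tested. No named gene's fold change turned sign under any alternative.

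Leaving out single libraries moved the median log2 fold change of the 35 between 0.15 and 0.44 in palbociclib against vehicle, -0.02 and 0.22 in rapamycin against vehicle, -0.07 and 0.05 in combination against vehicle, -0.36 and -0.25 in combination against palbociclib, -0.08 and 0.04 in combination against rapamycin, 0.05 and 0.16 in averaged palbociclib, -0.16 and -0.02 in averaged rapamycin, and -0.52 and -0.22 in the interaction. Fancd2 in palbociclib against vehicle ran from 1.83 to 2.17 without single libraries and was 1.41 on log2(TPM + 1). Its edgeR and limma adjusted p ran from 0.210 to 0.660. In combination against rapamycin, 2 genes in place of 1 lay below without overlap under library totals or TPM. Counts of positive fold changes were examined after seeing the data.

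Replicate numbers were not treated as pairs, since not every same-numbered correlation was over 0.1. These ran from -0.21 to 0.35 over 24 pairs (median 0.04), against -0.39 to 0.31 over 72 pairs of different numbers (median -0.02). Of 16 libraries 8 correlated best with their own number, where about 4 would by chance, a hint from the data and not from the design. With the replicate block 0 of 35 were called in every contrast, and Fancd2 in palbociclib against vehicle had 2.00 (adjusted p = 0.287).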
